A study of Rattus norvegicus with 4 samples.

Results

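The Bcl2 family holds proteins that restrain or carry out the mitochondrial route of apoptosis, and 10 of its genes were followed in a clonal rat insulinoma line, INS-1 832/13, whose cells release insulin when glucose rises. The genes were taken by their names in a table of 15172 genes. They comprise the anti-apoptotic genes Bcl2, Bcl2l1, Bcl2l2 and Mcl1, the pore-forming genes Bax and Bak1, and the BH3-only genes Bad, Bid, Bcl2l11 and Bbc3. The table analysed here listed 8 of the 10, and Mcl1 and Bbc3 were not analysed here. Cells were transfected for 36 h with a pool of siRNAs against TBK1, a kinase of innate immunity and metabolism (siTbk1-treated), or with a non-targeting siRNA (siScramble, control). Stranded mRNA libraries were sequenced from 2 samples per group, which carry the replicate numbers 2 and 3. The question put to these genes was whether depletion of TBK1 moved the mRNAs of survival and of death proteins.

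Anti-apoptotic members such as BCL-2 and BCL-XL, the product of Bcl2l1, hold BAX and BAK and the BH3-only proteins bound at the outer mitochondrial membrane. BH3-only proteins act as sensors of missing growth factors, of damage and of other stress, and they occupy the groove of the anti-apoptotic proteins or engage BAX and BAK directly. Freed BAX and BAK oligomerize into pores through which cytochrome c leaves the mitochondrion, and caspases are then activated. In β-cells this route is known for the cell death that follows cytokines, high glucose with fatty acids, and stress of the endoplasmic reticulum. Much of its control lies in phosphorylation, binding and turnover of the proteins, which mRNA counts do not measure.

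The libraries held total counts between 38428926 and 47759013, and levels are given in CPM, counts per 1000000 counts of the tested genes of a library, scaled by its TMM factor. On this scale 3 counts correspond to between 0.0625 and 0.0795 CPM. The p-values cover only the spread between the 2 samples of a group, which the labels do not describe as separate cultures. For each gene this spread was estimated in part from the other genes. Tbk1 itself fell from 53.7 and 52.5 CPM in the control libraries to 11.8 and 13.3 CPM in the siTbk1 libraries, a log2 fold change of −2.08 (standard error 0.076). All 11 listed β-cell markers were measured, and their summed level lay between 19138 and 20006 CPM in control and between 14856 and 16491 CPM in siTbk1-treated cells, most of it from Ins1 in control. Of the 11 markers 5 were called lower and 3 higher, namely Iapp (log2 fold change 0.38), Pcsk1 (0.27) and Nkx6-1 (0.23). Of 4 α-cell markers, Gcg alone was in the table, and it fell as well, from 1389 and 1313 CPM to 815 and 878 CPM (log2 fold change −0.68). The part of these shifts in the values of the Bcl2 family was not tested. Of 4 acinar and duct markers none was in the table, and the sums of the delta- and PP-cell markers and of the stromal, endothelial and immune markers were below 0.35 CPM in each library, with 1 gene in the table for each sum. In bulk RNA, fewer cells of a type and less mRNA per cell cannot be told apart.

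The promoter sequences of 8 of the 10 genes were found in the RefSeq table for build GRCr8, and Bax and Bbc3 were not. The 250 bases before the start are shown for the 3 BH3-only genes that were analysed among the 10, because Bad passed the test between groups and the others did not. Capitals mark GC boxes, the letters GGGCGG read on either strand. The Bad window is at chr1:213562864-213563113 on the plus strand, the Bid window at chr4:155808320-155808569 on the minus strand, and the Bcl2l11 window at chr3:135819792-135820041 on the plus strand, each written 5′ to 3′ along the gene.
Bad: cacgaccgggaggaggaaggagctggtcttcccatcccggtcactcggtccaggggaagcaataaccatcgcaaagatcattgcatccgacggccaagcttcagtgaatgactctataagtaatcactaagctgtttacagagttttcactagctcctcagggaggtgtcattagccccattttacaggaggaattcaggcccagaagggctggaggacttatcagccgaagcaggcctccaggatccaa
Bid: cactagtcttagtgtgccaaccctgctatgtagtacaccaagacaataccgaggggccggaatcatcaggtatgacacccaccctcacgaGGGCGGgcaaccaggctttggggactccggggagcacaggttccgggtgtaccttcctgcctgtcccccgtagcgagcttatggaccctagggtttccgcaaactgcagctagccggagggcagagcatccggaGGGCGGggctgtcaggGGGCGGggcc
Bcl2l11: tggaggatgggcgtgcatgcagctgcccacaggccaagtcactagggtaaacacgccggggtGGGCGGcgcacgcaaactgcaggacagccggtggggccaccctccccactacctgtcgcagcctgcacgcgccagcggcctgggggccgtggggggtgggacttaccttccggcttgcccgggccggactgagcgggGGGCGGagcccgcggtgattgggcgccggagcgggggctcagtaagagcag
The Bad window holds 0 GC boxes, the Bid window 3 and the Bcl2l11 window 2. Of all 33469 promoter windows of the same length, 30.5% hold at least 1. The Bcl2l2 and Bak1 windows hold 1 each, the Bcl2 window and the 4 alternative windows of Bcl2l1 hold 0, and the GC content of the windows of measured members runs from 33.6% for Bcl2 to 72.0% for Bcl2l11. The letters TGACG, a half-site of the cAMP response element, and CACGTG, an E-box, were read on both strands in the same windows, where 18.2% and 5.59% of all promoters hold them. Neither was present in a window of a measured member. Whether GC boxes or these letters relate to the changes between groups was not tested.

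Among the 8 measured members, Bad, Bax and Bcl2l1 were lower in siTbk1-treated cells and none was higher at an adjusted p-value under 0.05. This edgeR quasi-likelihood test was fitted on all 13953 tested genes. The 3 lower members make 37.5% of the 8, against 24.8% of all tested genes that were lower by the same rule, and 24.4% of all tested genes were higher. The median log2 fold change was −0.14 over the 8 members and 0.0071 over all tested genes. With the fold change limit of 1.5 added, Bad alone was called lower and no member higher, where the shares over all tested genes were 6.18% lower and 4.81% higher. At an unadjusted p-value under 0.05 the counts were 3 lower and 0 higher, and the share of all tested genes by that rule is not given here. DESeq2 and limma-voom each called 3 members lower and 0 higher at an adjusted p-value under 0.05. Over all genes, DESeq2 called 2720 higher and 2920 lower, and limma-voom 3374 higher and 3426 lower. The siTbk1 values were both under the lower control value for 6 of the 8 members and both over the higher control value for 1. The same was true of 37.9% and 38.7% of all tested genes.

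**Figure D1:**
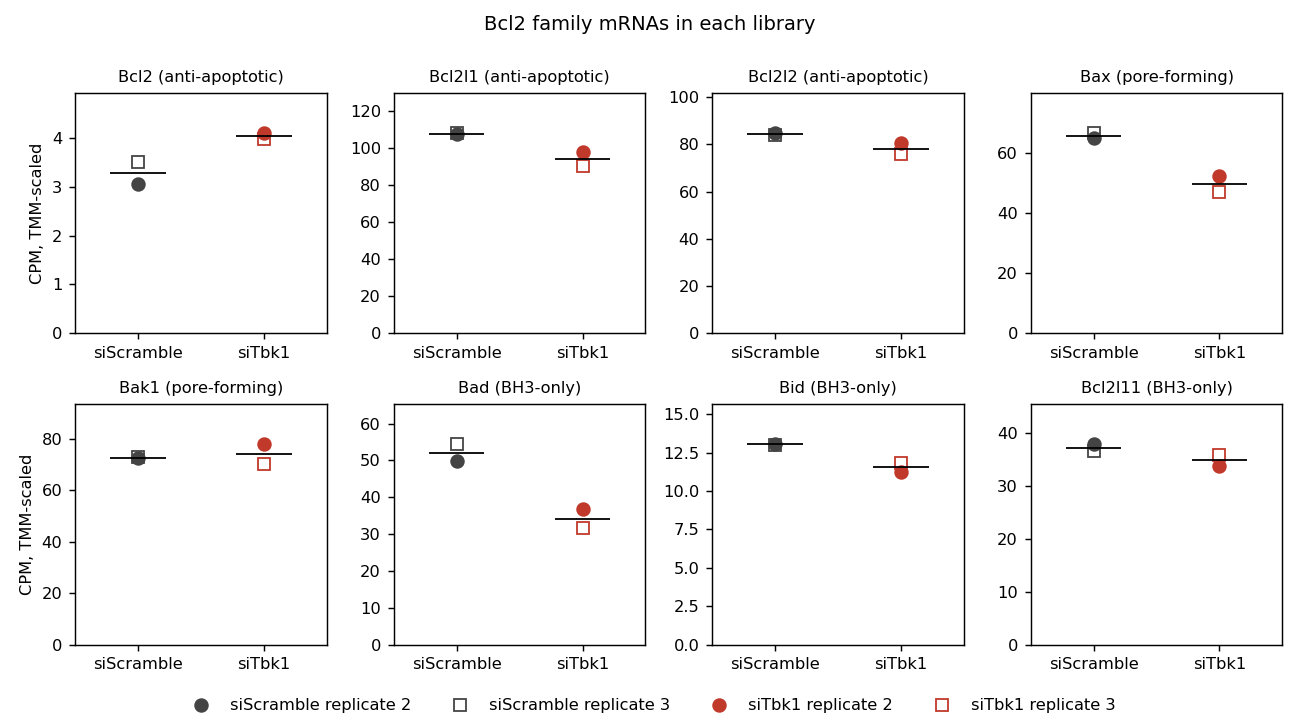
Level of each measured Bcl2 family mRNA in CPM, scaled with TMM factors (vertical axes from 0, separate for each gene), in the 2 siScramble and the 2 siTbk1 libraries, with a line at the mean of each group. The siTbk1 libraries of Bad lie at 36.7 and 31.6 CPM, below the control libraries at 49.7 and 54.4 CPM, while those of Bak1 lie on both sides of the controls.

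Bad, the BH3-only gene whose protein is held inactive by phosphorylation under growth factor and insulin signaling, showed the largest change of the 8. It is listed on chromosome 1 from 222198534 to 222207454 (build rn6). Its level was 49.7 and 54.4 CPM in siScramble replicates 2 and 3, and 36.7 and 31.6 CPM in siTbk1 replicates 2 and 3. The groups did not overlap, and the lowest control library lay above the highest siTbk1 library. The log2 fold change was −0.60 (standard error 0.079, 95% interval −0.78 to −0.43, adjusted p = 8.0e-05), a level of 0.658 times the control. The log2 ratio was −0.44 in the pair numbered 2 and −0.78 in the pair numbered 3. Because the fold change limit corresponds to 0.58 on the log2 scale, the call under this limit rests on a small margin. Without siScramble replicate 3 or siTbk1 replicate 3 the log2 fold change was −0.54 or −0.50, and a test of each gene against the 1.5-fold limit (glmTreat) did not call Bad. The adjusted p-value of Bad stayed under 0.05 in all 15 alternatives in which the gene's change was computed, and its largest value there was 0.00018.

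Bid encodes a BH3-only protein that caspase 8 cleaves to link death receptors to the mitochondrion. Its level was 13.1 and 13.0 CPM in the control libraries and 11.3 and 11.8 CPM in the siTbk1 libraries. The groups did not overlap, but the log2 fold change of −0.18 (standard error 0.088) did not pass the test (adjusted p = 0.11), and its 95% interval ran from −0.37 to 0.014. Bcl2l11, which encodes BIM, a BH3-only protein that binds every anti-apoptotic member, was at 38.0 and 36.7 CPM in control and at 33.8 and 36.0 CPM in siTbk1-treated cells. The groups did not overlap, although the replicates numbered 3 were close to each other. The log2 fold change was −0.097 (95% interval −0.24 to 0.046, adjusted p = 0.24). For both genes a fall of 1.5-fold lies outside the interval. Bad, Bid and Bcl2l11 thus each had lower values in both siTbk1 libraries than in both control libraries, as did 37.9% of all tested genes. Of these members Bad alone passed the test. Bmf and Bik, BH3-only genes outside the 10, were at −0.053 and −0.42 on the log2 scale and did not pass it (adjusted p = 0.85 and 0.21), and the groups overlapped for Bmf.

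The pair of pore-forming genes gave unlike values. Bax, whose product moves from the cytosol to mitochondria, was at 64.8 and 66.6 CPM in the control libraries and at 52.2 and 47.0 CPM in the siTbk1 libraries, without overlap. It is listed on chromosome 1 from 101451802 to 101457208. Its log2 fold change was −0.40 (standard error 0.066, 95% interval −0.55 to −0.26, adjusted p = 0.00035), a level of 0.757 times the control. The call at an adjusted p-value under 0.05 was kept in all 15 alternatives, with a largest adjusted p-value of 0.0025. Bak1, whose product resides in the outer mitochondrial membrane, was at 72.3 and 72.8 CPM in control and at 77.8 and 70.1 CPM in siTbk1-treated cells. The 2 siTbk1 libraries lay on either side of the controls, and the log2 fold change was 0.029 (95% interval −0.11 to 0.17, adjusted p = 0.74). Its sign turned with library size alone (−0.019), so that no direction was found for Bak1. The intervals of Bax and Bak1 did not overlap, and the difference between the genes was not tested. The counts of Bax include fractional values, more than 0.01 from whole numbers, and are therefore less certain. How the fractions arose is not given in the sources used here.

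Of the anti-apoptotic genes, Bcl2l1 passed the test. Its level was 107.6 and 108.1 CPM in the control libraries and 98.1 and 90.1 CPM in the siTbk1 libraries. The control libraries differed by far less than the siTbk1 libraries, and the groups did not overlap. The log2 fold change was −0.20 (standard error 0.059, 95% interval −0.32 to −0.068, adjusted p = 0.015), a level of 0.873 times the control. The change was −0.13 in the pair numbered 2 and −0.26 in the pair numbered 3, and without siTbk1 replicate 3 the log2 fold change was −0.14 and no longer passed (adjusted p = 0.18). The adjusted p-values of Bcl2l1 ran from 0.0020 to 0.18 over its 15 alternatives. Its counts also include fractional values. The pseudogene LOC108350502 is listed within Bcl2l1 on the opposite strand, and it was looked up after the values were seen. Its level was 811.7 and 824.2 CPM in the control libraries and 626.4 and 575.0 CPM in the siTbk1 libraries, without overlap. It fell by 0.45 on the log2 scale (standard error 0.056, adjusted p = 6.3e-05), and its counts include fractional values too. The counting is not stated to use strand, so that reads of the pair cannot be told apart and the value of Bcl2l1 is uncertain.

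Bcl2l2, which encodes BCL-W, was at 84.8 and 83.8 CPM in control and at 80.4 and 75.9 CPM in siTbk1-treated cells. The groups did not overlap, and the log2 fold change of −0.11 (standard error 0.057, 95% interval −0.23 to 0.016) did not pass the test (adjusted p = 0.14). With library size alone it passed (−0.16, adjusted p = 0.039), and with a correction for genomic span it was at 0.0066, so that its direction was not stable. Bcl2, the founding member of the family, is measured at low depth in these cells, with counts of 147 and 139 in the control libraries and of 193 and 150 in the siTbk1 libraries. These correspond to 3.06 and 3.51 CPM and to 4.10 and 3.97 CPM. Bcl2 was the only measured member with both siTbk1 libraries above both controls. Its log2 fold change was 0.30 (standard error 0.15, 95% interval −0.013 to 0.62) and did not pass the test (adjusted p = 0.10, and between 0.10 and 0.42 over 15 alternatives). The exact 95% Poisson interval of the count, which covers counting error only, was 124 to 173 in siScramble replicate 2 and 167 to 222 in siTbk1 replicate 2. For the replicates numbered 3 it was 117 to 164 and 127 to 176. The intervals of the groups overlap in the pair numbered 2 and in the pair numbered 3. They are intervals of counts not scaled between libraries, and their overlap is not a test of the difference. A rise of 1.5-fold was within the interval of the fold change.

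**Figure D2:**
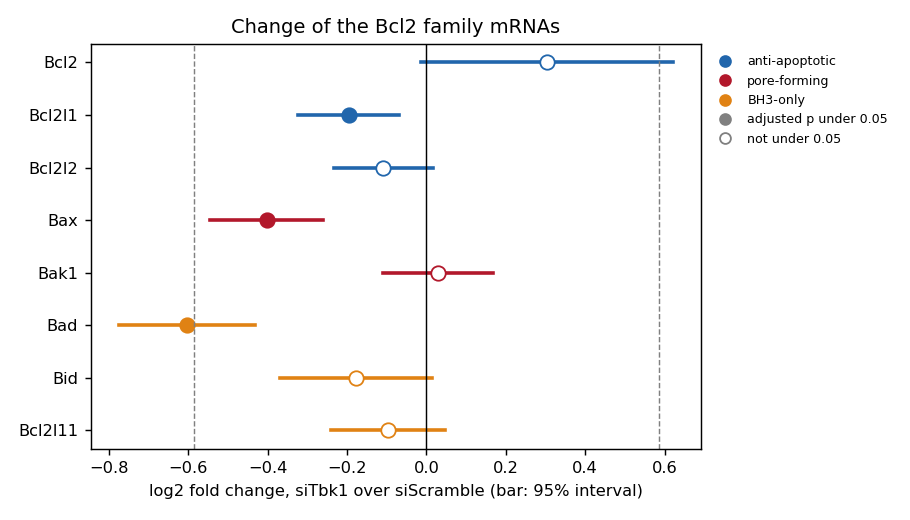
Log2 fold change of the 8 measured members, siTbk1 over siScramble, with 95% intervals as bars, colors for the 3 roles, filled points for an adjusted p-value under 0.05 and dashed lines at a fold change of 1.5. Bad (−0.60), Bax (−0.40) and Bcl2l1 (−0.20) are filled and lie below 0, and Bcl2 (0.30) is the highest open point, with an interval that includes 0.

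The members differ in genomic span, and short genes as a group had lower values in siTbk1-treated cells. The 4522 tested genes with a listed span of at most 10 kb had a median log2 fold change of −0.099, and the span is 8.92 kb for Bad, 5.41 kb for Bax, 4.85 kb for Bcl2l2 and 8.64 kb for Bak1. Bcl2l1 spans 54.2 kb and Bcl2 163.9 kb. After removal of each library's trend along span, Bad was at −0.52 (adjusted p = 0.00018), Bax at −0.29 (adjusted p = 0.0025) and Bcl2l1 at −0.28 (adjusted p = 0.0024), so that the same 3 members were called lower and Bad no longer reached the fold change limit. In the same fit Bcl2 was at 0.18, Bak1 at 0.12, Bid at −0.17 and Bcl2l11 at −0.15, and none of these passed the test.

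The balance between survival and death mRNAs was then followed as the ratio of the counts of 2 genes within a library, which does not depend on the scaling between libraries. Counts were not divided by transcript length, so that only the change of a ratio between groups was read, not its size. With 2 libraries per group the smallest two-sided p-value of an exact permutation test is 0.333, and no test was made. The ratios of Bcl2l1 carry the uncertainty of its counts given above. The log2 ratio of Bcl2l1 to Bad was 1.11 and 0.99 in the control libraries and 1.42 and 1.51 in the siTbk1 libraries, a change of 0.41 with a pooled SD of 0.077. Both siTbk1 libraries were higher than both controls. The log2 ratio of Bcl2l1 to Bax was 0.73 and 0.70 in control and 0.91 and 0.94 in siTbk1-treated cells, a change of 0.21 with a pooled SD of 0.022. The log2 ratio of Bcl2l1 to Bak1 changed in the opposite direction, from 0.57 and 0.57 to 0.33 and 0.36, a change of −0.22 with a pooled SD of 0.013.

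Against the other BH3-only genes, the groups overlapped for Bcl2l1. The change of its log2 ratio was −0.022 to Bid and −0.10 to Bcl2l11, with pooled SDs of 0.096 and 0.11. The ratios of Bcl2l2 changed by 0.50 to Bad, 0.30 to Bax, −0.14 to Bak1, 0.066 to Bid and −0.014 to Bcl2l11. The ratios of Bcl2 changed by 0.91 to Bad, 0.71 to Bax, 0.48 to Bid, 0.40 to Bcl2l11 and 0.28 to Bak1, and they rest on the low counts of Bcl2. These 15 ratios are made from 8 genes and are not independent. The correction for genomic span, applied to ratios after the data were examined, brought the change of Bcl2l1 to Bax from 0.21 to 0.0052 and that of Bcl2l1 to Bad from 0.41 to 0.23, and made that of Bcl2l1 to Bak1 larger, at −0.40. With this correction Bcl2l2 to Bax was at 0.30 and Bcl2l2 to Bad at 0.52, and the changes for Bcl2 were smaller, at 0.47 to Bax, 0.70 to Bad and 0.064 to Bak1.

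**Figure D3:**
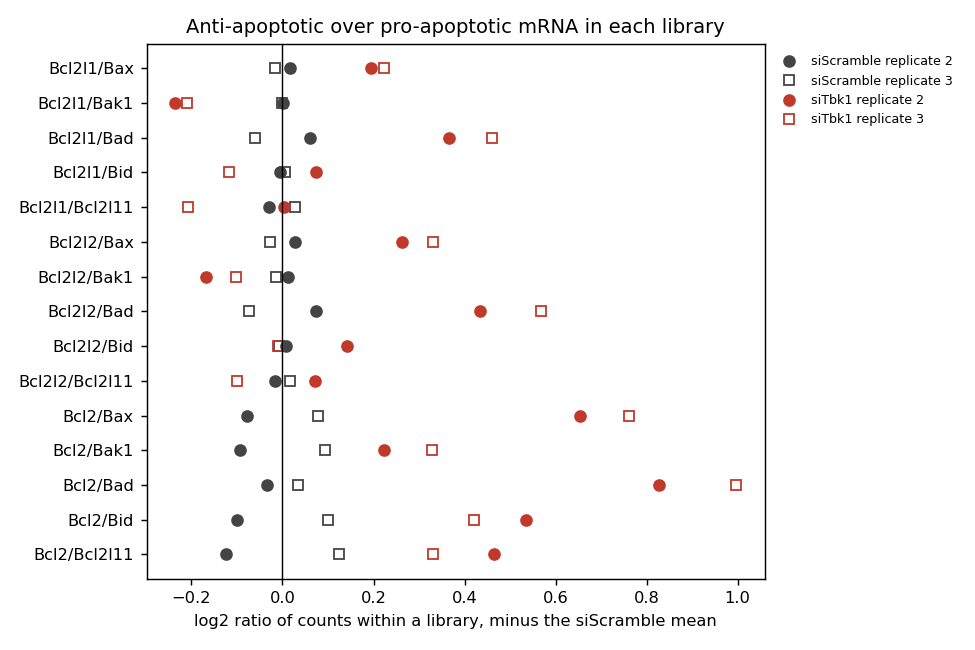
Log2 ratio of the counts of an anti-apoptotic gene to those of a pro-apoptotic gene within each library, minus the mean of the 2 siScramble libraries, for 15 pairs of genes. Both siTbk1 libraries lie to the right of the controls for each ratio to Bad (changes of 0.41, 0.50 and 0.91) and to Bax (0.21, 0.30 and 0.71), and to the left for Bcl2l1 and Bcl2l2 over Bak1 (−0.22 and −0.14).

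Further genes of the family and of the steps around it were taken from lists. Of 14 other Bcl2 family genes, 9 were tested, of which 2 were called higher, 2 lower and 5 not called (median log2 fold change 0.059). Among all tested genes, 24.4% were called higher and 24.8% lower by the same rule, an adjusted p-value under 0.05. Bok, a relative of Bax and Bak1, fell by 0.42 on the log2 scale (adjusted p = 0.0070), from 12.9 and 13.7 CPM to 10.9 and 8.88 CPM. Bnip3, a mitochondrial BH3-containing protein of mitophagy and cell death, rose by 0.25 (adjusted p = 0.0061). Of the 3 VDAC channel genes of the outer mitochondrial membrane, Vdac2 and Vdac3 rose, by 0.18 and 0.19 on the log2 scale. Of 6 genes of the apoptosome and of factors released from mitochondria, Apaf1, the scaffold that activates caspase 9, rose by 0.33 and Endog, a mitochondrial nuclease, fell by 0.34. The other 4, cytochrome c (Cycs) among them at 0.035, were not called. The medians of these last 2 lists were 0.18 and −0.013.

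Of the 58 tested genes of these lists, 3 passed the fold change limit, and each was higher in siTbk1-treated cells. By the same rules 4.81% of all tested genes were higher and 6.18% lower. Xiap, which encodes an inhibitor of caspases, rose from 33.6 and 33.0 CPM to 58.7 and 57.9 CPM, a log2 fold change of 0.81 (standard error 0.060, adjusted p = 2.1e-06). Fas, a death receptor, rose from 5.54 and 4.90 CPM to 9.69 and 8.80 CPM (log2 fold change 0.82), and Cflar, which encodes the inhibitor FLIP that acts at death receptors, rose from 4.71 and 5.35 CPM to 8.42 and 8.37 CPM (0.74). The groups did not overlap for any of these 3 genes. Both siTbk1 libraries lay above both siScramble libraries for 38.7% of all tested genes. The counts of Xiap include fractional values, as do those of Bnip3, Cycs, Vdac2, Casp2, Birc6 and Ywhaz, which are also less certain.

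Of 4 tested caspases, Casp2 rose (log2 fold change 0.37) and 3 were not called (median of the list 0.071). Of the 5 inhibitor of apoptosis genes, 3 were higher, with Birc6 at 0.53, 1 was lower and 1 was not called (median 0.41). In the death receptor list all 6 tested genes were called, 4 higher and 2 lower (median 0.22). A list of regulators of the transcription of BH3-only genes also held Cdkn1a, the cell cycle inhibitor p21, which is not such a regulator. Of the 8 tested genes of this list, Cdkn1a rose by 0.32 and Ddit3, the stress factor CHOP, by 0.20. The other 6 were not called (median of the list 0.064). Of 17 kinases, 14-3-3 proteins and ubiquitin enzymes that act on Bcl2 family proteins, 7 were higher, 3 were lower and 7 were not called (median 0.087). Akt1, a kinase that phosphorylates BAD, fell by 0.47, from 170.6 and 185.6 CPM to 135.8 and 120.5 CPM (adjusted p = 0.00013), and Ywhaz, a 14-3-3 protein that holds phosphorylated BAD in the cytosol, rose by 0.51 (adjusted p = 1.7e-05). Over all 58 tested genes of these lists, 22 were higher and 9 lower, with 3 and 0 past the fold change limit. The same rules called 24.4% higher and 24.8% lower, and 4.81% and 6.18% past the limit, among all tested genes. The median span was 36.0 kb for all genes called higher past the limit and 10.6 kb for those called lower. It was 20.1 kb for all tested genes. The part of genomic span in the counts of these lists was not tested.

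**Figure D4:**
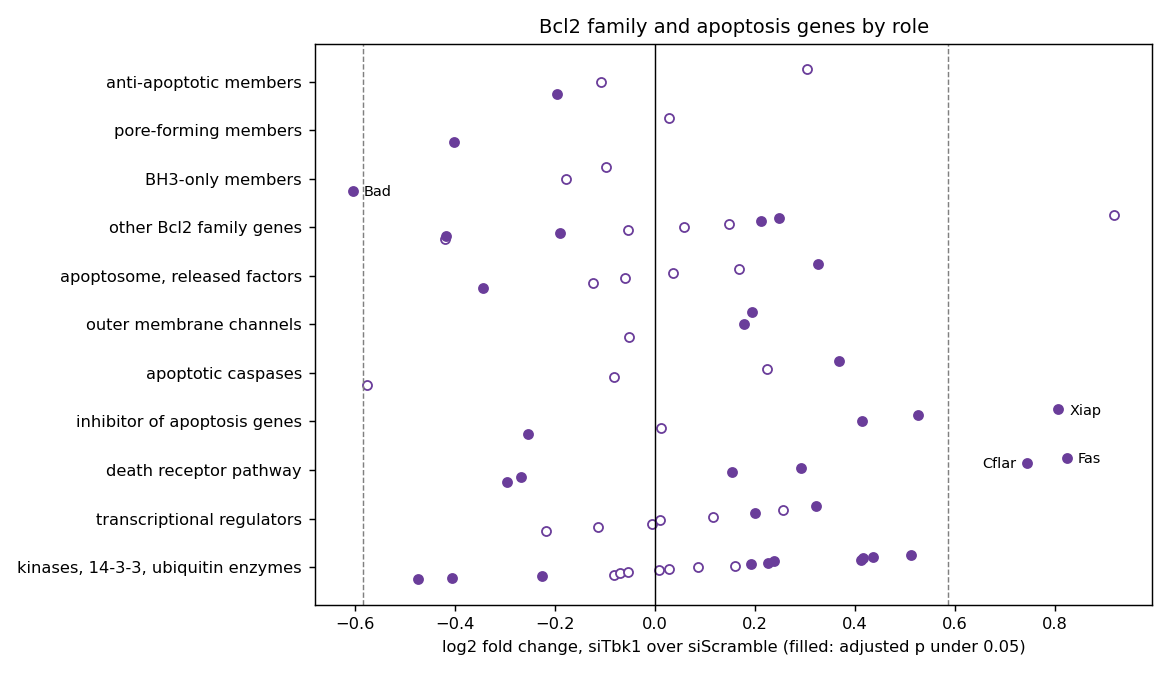
Log2 fold change, siTbk1 over siScramble, of each tested gene of the Bcl2 family and of the apoptosis lists, 1 row for each list, filled for an adjusted p-value under 0.05 and dashed at a fold change of 1.5. Gene names mark the calls past the limit: Bad at −0.60 among the BH3-only genes, and Xiap (0.81), Cflar (0.74) and Fas (0.82) on the higher side. The open point at 0.92 is Bcl2l12, which did not pass the test (adjusted p = 0.12).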

How the data were processed

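RNA sequencing of rat INS-1 832/13 cells, 2 siScramble and 2 siTbk1 samples, was analysed. Per gene, the authors deposited estimated counts, unscaled between samples, some with fractional parts. The submitters' processing notes name STAR 2.6.1d, Partek and build rn6. The annotation and the use of strand are not given in the sources used here. Groups, replicate numbers and columns were taken from the labels.

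Estimated counts were rounded. filterByExpr (minimum count 10) left 13953 genes and removed 1219, TMM factors lay between 0.982 and 1.02, and edgeR 4.0.16 quasi-likelihood tests (R 4.3.3) with treatment as the factor were adjusted by Benjamini-Hochberg over all tested genes. The members and lists were chosen with earlier results of these data known. Named genes were the members, Tbk1, listed genes past both limits, and the 2 largest changes per list at an adjusted p-value under 0.05. Cycs and Bcl2l12 were named after their values were seen. Bmf, Bik and some of the named cell type markers also fall outside this rule. Some listed genes are not reported here. Alternatives were DESeq2 1.42.0, limma-voom (3.58.1), a replicate block, other scalings and filters, thinning, glmTreat, a span correction (loess, span 0.5) and leaving out each sample. The tests were checked on simulated data. Python 3.11.15 and matplotlib 3.10.9 drew the figures. A total of 2 samples per group limits the precision.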

Additional observations from a re-analysis of the deposited data

How the results depend on the processing

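Bad, Bax and Tbk1 kept their direction and an adjusted p-value under 0.05 in each of their 15 alternatives, and no member was called higher in any of them. The log2 fold change of Bad ranged from −0.65 to −0.52, and from −0.73 to −0.50 with a sample left out, and that of Bax from −0.45 to −0.29, and from −0.49 to −0.33. The number of members called lower was 3 to 4, and 2 to 3 with a sample left out. With the fold change limit added, 1 member, Bad, was called lower, and 0 with glmTreat, with the span correction, with the span correction and replicate block together, and without siScramble replicate 3 or siTbk1 replicate 3 (0 to 1 over the samples left out). Bak1 turned to −0.019 with library size alone and ranged from −0.062 (without siTbk1 replicate 2) to 0.10 with a sample left out, and Bcl2l2 turned to 0.0066 with the span correction and to 0.0065 with the block added. The span correction, which was applied to ratios after the data were examined, moved the change of Bcl2l1/Bad to 0.23, of Bcl2l1/Bax to 0.0052 and of Bcl2l1/Bak1 to −0.40. Same-numbered samples did not deviate together across genes (Pearson correlation −0.081). Bcl2l1 was called lower in each alternative but the one without siTbk1 replicate 3 (−0.14). With the replicate block, Bad was at −0.61 and Bax at −0.40, and it changed no call of a member. Over all genes, glmTreat called 163 higher and 101 lower against 671 and 862 with the fold change limit applied to the estimate, and without siScramble replicate 3 the latter count was 574. The depth of Bcl2 and the 2 samples per group limit what could be seen.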
